A study of Mus musculus with 120 samples.

Results

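Rnase2a, Prg2, Epx, Ear1, Ear2, Ear6, Siglecf and Il5ra, 8 genes known for their expression in eosinophils, were followed in bulk RNA sequencing of scaffold biopsies. The 8 genes were chosen by name, and each was listed once in both deposited count tables, among 55487 genes that the tables share and 41759 genes that had a count in some library. The immunological niche (IN) is a porous polycaprolactone scaffold placed under the skin, which fills with host cells and was removed and replaced during the life of the mouse. All mice were female, and the labels name no drug or transgene. NOD (NOD/ShiLtJ) mice, which develop autoimmune diabetes spontaneously, gave 97 of the 120 libraries, and NOR (NOR/LtJ) mice, a related strain that remains free of diabetes, gave 23 libraries from 5 mice. NOD mice that became hyperglycemic (progressors, 58 libraries from 10 mice) were sampled at 6 weeks of age, at 7, 5, 3 and 1 weeks before onset and at onset. NOD mice that stayed normoglycemic (nonprogressors, 39 libraries from 11 mice) and NOR mice were sampled at ages of 6, 10, 14, 18 and 22 weeks, of which batch 2 held the first and the third only. There were 6 nonprogressor libraries labelled by days after implantation (31, 38 and 108 days, 2 each), and these entered no comparison. Batch 1 (74 libraries) held every NOR library, and batch 2 (46 libraries) held NOD libraries only. In a biopsy, RNA of all cells is pooled, so fewer cells of a type and less RNA per cell cannot be told apart.

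Eosinophils mature in bone marrow under interleukin-5, whose receptor alpha chain is encoded by Il5ra, and enter tissue in response to eotaxins. Their granules hold major basic protein (Prg2), eosinophil peroxidase (Epx) and eosinophil-associated ribonucleases, which are encoded in the mouse by Rnase2a, Ear1, Ear2, Ear6 and related genes. Siglecf encodes a sialic acid-binding receptor of the eosinophil surface that some tissue macrophages, such as those of lung alveoli, also carry, and Ear genes are also transcribed in some macrophages.

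The ribonuclease genes are copies of each other, and the counts of some of them rest on shared sequence. In GRCm38 they lie on chromosome 14, with Rnase2a at chr14:51255262-51256112 (minus strand), Ear1 at chr14:43818765-43875517 (minus), Ear2 at chr14:44102654-44103534 (plus) and Ear6 at chr14:51853699-51854643 (plus). Siglecf lies at chr7:43351341-43359531 (plus), Il5ra at chr6:106710357-106749037 (minus), Prg2 at chr2:84980461-84983632 (plus) and Epx at chr11:87864000-87875536 (minus). The 250 bases before the RefSeq transcription starts (GRCm38.p6) of the 3 ribonuclease genes with most counts are shown 5′ to 3′ because each of the 5 NOR mice had its highest value of all 3 genes at 22 weeks. They cover chr14:51256113-51256362 (minus strand) for Rnase2a, chr14:43819640-43819889 (minus) for Ear1 and chr14:44102404-44102653 (plus) for Ear2, and the capitals mark a run of 16 bases that these 3 promoters share with that of Ear6. The Ear1 window lies inside the Ear1 gene span given above, as the RefSeq start differs from the 5′ end of that span.
Rnase2a: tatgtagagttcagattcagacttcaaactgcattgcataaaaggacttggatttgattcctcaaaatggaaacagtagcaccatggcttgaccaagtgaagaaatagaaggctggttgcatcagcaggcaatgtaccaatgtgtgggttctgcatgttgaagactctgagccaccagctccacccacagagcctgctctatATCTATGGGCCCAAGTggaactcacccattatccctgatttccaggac
Ear1: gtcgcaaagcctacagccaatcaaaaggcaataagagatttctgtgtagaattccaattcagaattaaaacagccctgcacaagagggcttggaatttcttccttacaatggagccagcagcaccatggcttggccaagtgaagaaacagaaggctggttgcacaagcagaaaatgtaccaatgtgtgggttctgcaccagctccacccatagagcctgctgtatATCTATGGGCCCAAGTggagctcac
Ear2: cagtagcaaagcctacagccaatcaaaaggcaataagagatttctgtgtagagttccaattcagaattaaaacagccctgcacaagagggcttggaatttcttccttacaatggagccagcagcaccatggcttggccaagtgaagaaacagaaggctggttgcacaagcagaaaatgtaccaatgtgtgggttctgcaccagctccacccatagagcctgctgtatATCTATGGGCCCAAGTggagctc

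RefSeq promoters were matched for 7 of the 8 genes, all but Prg2. The run in capitals occurred in 5 of 32851 promoter windows of this length (0.0152%), those of Rnase2a, Ear1, Ear2, Ear6 and Ear10, and began 203, 226 and 228 bases into the windows shown. The Ear1 and Ear2 windows were 99.2% identical over 248 aligned bases, whereas that of Rnase2a was 86.1% identical to Ear1 and 86.4% to Ear2. The form of the GAS motif that STAT6 prefers, TTC and, after 4 free bases, GAA, was searched on both strands and was in none of the 7 windows and in 5.85% of all windows. The GATA-factor pattern with the letters GATAA, also searched on both strands, occurred once each in the windows of Rnase2a and Il5ra and in 22.6% of all windows. At the transcript level, Ear1 and Ear2 were 96.8% identical over 713 bases, and Rnase2a was 80.7% identical to Ear1 and 81.4% to Ear2. Of the 50-base stretches of Ear1 transcripts, 57.4% were also present in another gene, most often in the pseudogene Ear-ps9, which overlaps Ear1 in exons, and the share was 41.5% for Ear2 and 0.954% for Ear6. Values of Ear1 and Ear2 are therefore uncertain as values of separate genes. No 50-base stretch of Rnase2a, Prg2 or Epx occurred in another gene, and the share was 0.206% for Siglecf and 0.899% for Il5ra.

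Most of the signal of the 8 genes came from Rnase2a and Siglecf, while the defining granule genes Prg2 and Epx were close to 0 in the 114 libraries with an age or onset label. Over all 120 libraries Rnase2a had 22829 counts and was detected in 118 libraries, and Siglecf had 12398 counts in 119 libraries. Ear2 had 2187 counts, Ear1 968, Il5ra 606 and Ear6 395. Prg2 had 1428 counts, of which 947 were in the 6 libraries labelled by days after implantation and 617 in a single library of these, and 481 in the other 114 libraries. Epx had 70 counts in all, with at most 5 in a library, and 76 libraries had no count of it. Rnase2a thus held 83.45% of the counts of the Ear and Rnase2 genes and pseudogenes, and Ear2 held 7.994%. The peroxidase gene Epx, a narrow marker of eosinophils, was at 0 in 74 of these 114 libraries. The names of the 8 genes stand here for the genes, and the cells that gave their counts were not tested. A count of 0 allows up to 3 counts, which came to between 0.0519 and 3.03 CPM (counts relative to the library total, scaled by the trimmed mean of M values, TMM) in batch 1 and between 0.0632 and 0.0850 in batch 2, for counting error only.

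Per kilobase of exon, the median level over the 114 libraries was 2.32 CPM per kb for Rnase2a, 0.998 for Siglecf, 0.4999 for Ear2, 0.182 for Ear1 and 0.113 for Prg2. Ear6 followed at 0.0589 and Il5ra at 0.0167 CPM per kb, and Epx was at 0. Other eosinophil granule genes were at or near 0 as well, with no count of Prg3, the second major basic protein gene, in 112 of the 114 libraries, of Rnase2b in 104 and of Ear10 in 100. Ccr3, the eotaxin receptor gene, had a median of 0.215 CPM per kb. Of the 10 macrophage markers, 9 had medians above those of all 8 genes on this scale, from 8.92 CPM per kb for Cd163 and 61.7 for Adgre1 to 2460 for the lysozyme gene Lyz2, and Fcgr1, at 1.79, lay below Rnase2a. The mast cell protease genes Cpa3 and Cma1 had medians of 1.97 and 3.28 CPM per kb, and the basophil protease genes Mcpt8 and Prss34 were without a count in 73 and 81 of the 114 libraries.

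**Figure D1:**
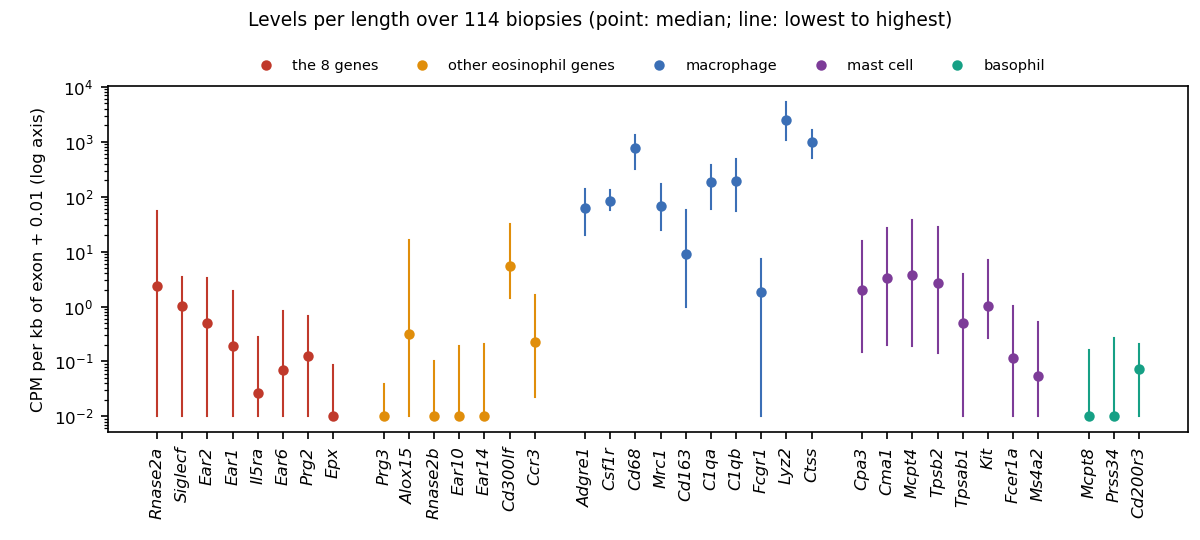
Levels per kilobase of exon (CPM per kb, log axis) of the 8 genes and of marker genes of other cells over the 114 libraries with an age or onset label. A value of 0.01 was added for the axis, the line spans the lowest to the highest library and the point is the median, which was at most 2.32 (Rnase2a) for the 8 genes and 2460 for Lyz2.

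A few libraries stood apart in depth. Counts per library ran from 4722396 to 56185434 in batch 1 and from 29029239 to 43880986 in batch 2. The 18-week library of NOR mouse 5 was dominated by ribosomal RNA (85.7% of counts on a single gene) and had no count of Rnase2a, Siglecf, Ear1, Ear2 or Il5ra, and the 18-week library of nonprogressor mouse 3 was the shallowest. Results were recomputed without both. At 6 weeks of age, where NOD mice of both batches could be set side by side, 60.8% of all genes tested differed between the batches, and of the 3 genes tested here Rnase2a did, being higher in batch 2 by 1.40 (SE 0.48, adjusted p = 0.0154) on the log2 scale. Levels are therefore given within batch. Adjusted p-values are from edgeR's quasi-likelihood test with Benjamini-Hochberg adjustment over all genes tested, except where DESeq2 is named.

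In NOR mice Rnase2a was low at the younger ages and high at 22 weeks in each of the 5 mice. At 6 weeks it was 0.696, 1.15, 0.155 and 0.702 CPM in NOR mice 1, 2, 4 and 5. At 22 weeks it was 25.1, 33.1, 18.7, 14.4 and 24.8 CPM in NOR mice 1 to 5. The 22-week values did not overlap those of any younger age, whose highest value was 9.85 CPM in mouse 2 at 14 weeks. The 14-week values of the other mice lay between 0.364 and 1.87 CPM, and no 10-week value exceeded 0.501 CPM. At 18 weeks mouse 1 was at 5.71 CPM, mouse 3 at 1.08, mouse 4 at 0.0706 and mouse 5, the ribosomal RNA-rich library, at 0. In the order of medians, 10, 18, 6, 14 and 22 weeks, every neighbouring pair overlapped except 14 and 22 weeks.

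Ear1, Ear2 and Il5ra also had their highest NOR biopsy at 22 weeks in 5 of 5 mice, and Siglecf in 4 of 5. Siglecf was 4.95, 7.98, 8.67, 4.85 and 9.61 CPM in NOR mice 1 to 5 at 22 weeks. It was 3.64, 3.17, 5.16 and 3.55 CPM at 6 weeks in mice 1, 2, 4 and 5. The Siglecf ranges of 6, 18 and 22 weeks overlapped, unlike those of Rnase2a. Ear1 was 1.04, 1.40, 1.31, 0.889 and 1.20 CPM at 22 weeks, above all younger NOR libraries, which reached 0.614. Ear2 was 1.25, 1.37, 1.35, 0.855 and 1.60 CPM, and overlapped the younger NOR libraries through the 14-week library of mouse 1 at 0.906. Il5ra was 0.791, 0.880, 0.736, 0.171 and 0.974 CPM at 22 weeks, and 4 of these values lay above every younger NOR library, which had at most 6 counts of it.

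The difference between the NOR ages was tested with an F test over the 5 ages, which called 8.24% of all genes tested. All 5 of the genes tested here passed, namely Rnase2a (adjusted p = 0.000221), Il5ra and Ear2 (0.000269 each), Ear1 (0.000736) and Siglecf (0.0106), and the other 3 had too few counts to be tested. The Siglecf call was lost without NOR mouse 1, 2 or 3 (adjusted p between 0.0572 and 0.115). The mean of the 4 later ages minus 6 weeks, a contrast that called 0.0357% of all genes, called 0 of 5 with edgeR and 0 of 5 with DESeq2, although 3 of the 5 had an unadjusted p under 0.05. That difference was 1.85 (SE 0.81, adjusted p = 0.704) on the log2 scale for Rnase2a, 1.71 (SE 0.58, 0.555) for Ear1, 1.79 (SE 0.80, 0.711) for Il5ra, 0.52 (SE 0.34) for Ear2 and 0.05 (SE 0.25) for Siglecf. Later NOR biopsies also came from replaced scaffolds, so age, repeated surgery and the time a scaffold had been in place cannot be told apart.

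**Figure D2:**
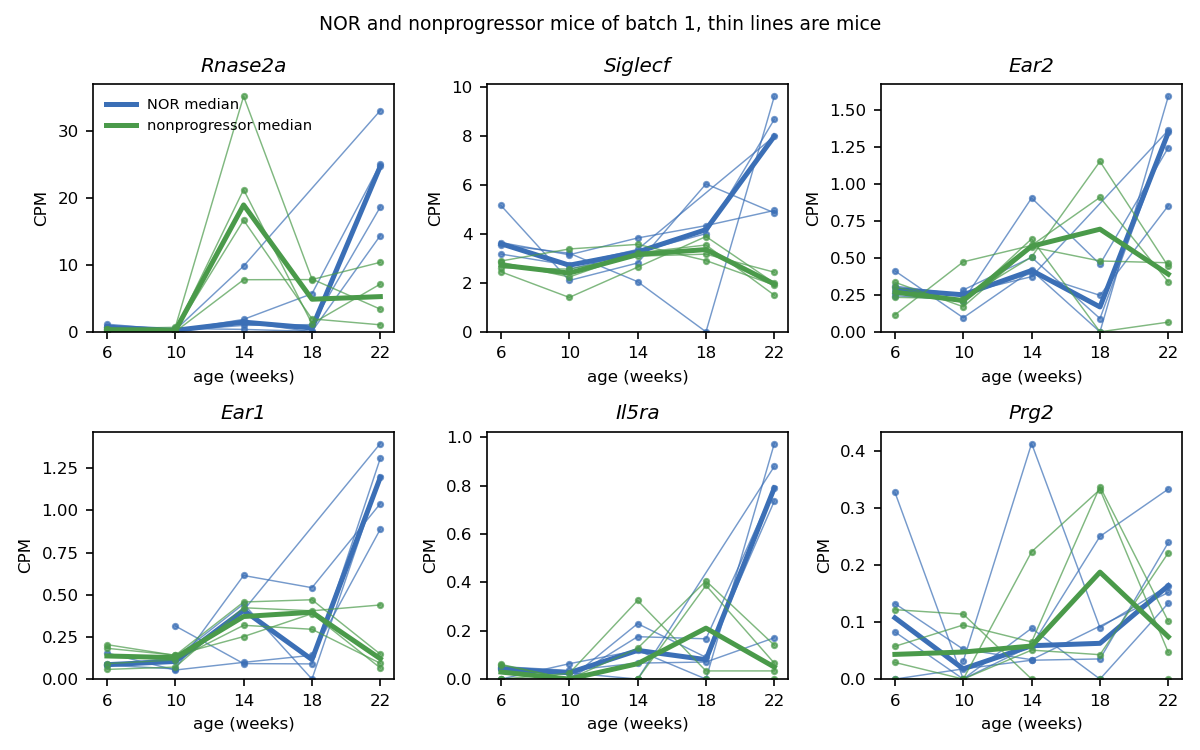
Levels (CPM, linear axes that differ between panels) of Rnase2a, Siglecf, Ear2, Ear1, Il5ra and Prg2 against age in weeks in batch 1, with a point for each NOR (blue) or nonprogressor (green) library, thin lines joining the biopsies of a mouse and thick lines joining medians. Rnase2a stood at 14.4 to 33.1 CPM at 22 weeks in NOR mice and at 7.80 to 35.3 CPM at 14 weeks in nonprogressors.

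In nonprogressors of batch 1 the Rnase2a median was highest at 14 weeks, where that of NOR mice was highest at 22 weeks. At 6 weeks it was 0.201, 0, 0.456 and 0.496 CPM in nonprogressor mice 1 to 4, and at 10 weeks at most 0.674 CPM. At 14 weeks it was 7.80, 21.3, 16.7 and 35.3 CPM, and 3 of the 4 mice had their highest value there. The 14-week values did not overlap those of 6 or 10 weeks. At 18 weeks the 4 mice were at 7.82, 1.22, 1.94 and 7.91 CPM, and at 22 weeks at 10.4, 7.15, 1.05 and 3.39 CPM. In the order of medians, 10, 6, 18, 22 and 14 weeks, the step from 6 to 18 weeks was without overlap and the other neighbours overlapped. In batch 2, nonprogressor mice 5 to 11 had 0.309 to 1.67 CPM at 6 weeks with a median of 0.557. The 6 of them sampled at 14 weeks had 0.848 to 38.5 CPM with a median of 4.01, and the 2 ranges overlapped, with mouse 5 far above the others at 38.5.

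For nonprogressors, later minus 6 weeks was 2.20 (SE 0.74, adjusted p = 0.0307) for Rnase2a on the log2 scale. The mean of a mouse's later biopsies was above its 6-week value in 9 of 10 mice. Rnase2a was the only 1 of 4 genes tested to pass, where 24.1% of all genes did. With the mouse as a block it was 1.93 (adjusted p = 0.135), and without nonprogressor mouse 1, 2, 3, 4 or 5 the adjusted p was between 0.0553 and 0.171. Ear2 was 0.78 (SE 0.40, 0.161), Ear1 0.72 (SE 0.49, 0.293) and Siglecf −0.00 (SE 0.15, 0.999) in the same contrast. The F test over the ages called 34.7% of all genes and 3 of 4 here, Rnase2a (adjusted p = 2.83e-05), Ear2 (0.0402) and Siglecf (0.0421). With the mouse as a block, only Rnase2a of these 3 stayed past the threshold (0.00131), and Siglecf (0.0869) and Ear2 (0.119) did not. Siglecf also missed it with no batch term (0.0551), with no filter on low counts (0.0803) and within batch 1 (0.0806), and Ear2 with no filter (0.0626) and within batch 1 (0.145), whereas Ear1 passed with DESeq2 (0.0395) and within batch 1 (0.0457). Leaving out single mice moved Siglecf to between 0.00707 and 0.241, with the call lost without nonprogressor mouse 1, 2, 3, 4, 6, 8, 9, 10 or 11. It moved Ear2 to between 0.0183 and 0.149, with the call lost without mouse 1, 2, 4, 5, 6, 7 or 11.

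The strains were then compared at each age within batch 1, a comparison chosen after the values by age had been seen. At 22 weeks 4 of 6 genes tested were lower in nonprogressors than in NOR mice, where 7.19% of all genes tested passed in either direction. Siglecf was 2.43, 1.496, 1.91 and 1.99 CPM in nonprogressor mice 1 to 4, all below the lowest NOR value of 4.85. Its difference was −1.86 (SE 0.29, adjusted p = 2.36e-05) on the log2 scale. Ear1 was 0.439, 0.0935, 0.0658 and 0.148 CPM in nonprogressors, below the NOR range of 0.889 to 1.40 (−2.48, SE 0.53, adjusted p = 0.00237). Ear2 was 0.338, 0.468, 0.0658 and 0.443 CPM, below the NOR range of 0.855 to 1.60 (−1.92, SE 0.46, adjusted p = 0.00678). Il5ra was 0.0338, 0.140, 0.0658 and 0 CPM, with at most 3 counts in a library, against 0.171 to 0.974 CPM in NOR mice (−3.40, SE 0.91, adjusted p = 0.0159). All 4 of these ranges were without overlap between the strains, for Il5ra only by 0.140 against 0.171 CPM. The share of all genes without overlap at this age was not computed. Without nonprogressor mouse 1, Il5ra missed the threshold (−3.15, adjusted p = 0.0643).

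The 4 nonprogressor libraries of 22 weeks also stood apart in RNA makeup. Genes of 7SL RNA, the RNA of the signal recognition particle, took 17.1%, 23.5%, 30.2% and 38.7% of their counts, against 6.46% to 11.0% in the 5 NOR libraries of that age. A ribosomal RNA gene took 1.18% to 12.6% against 0.417% to 2.45%, and their TMM factors were 0.505 to 0.837 against 0.911 to 0.970, so that only the ribosomal RNA shares overlapped. With the 7SL and ribosomal RNA genes left out of the fit, the differences were −1.87 for Siglecf (adjusted p = 2.02e-05), −2.49 for Ear1 (0.00214), −1.93 for Ear2 (0.00663) and −3.41 for Il5ra (0.0159). With the 7SL share as a covariate, Siglecf (−2.19, adjusted p = 3.34e-05), Ear1 (−2.89, 0.00767) and Ear2 (−1.92, 0.0490) passed and Il5ra did not (−2.91, 0.161). Both of these fits were added after the data had been seen, and since the 7SL shares of the groups do not overlap at 22 weeks, RNA makeup and strain cannot be told apart at this age. The same 4 libraries enter the nonprogressor tests over age.

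Rnase2a itself did not pass at 22 weeks (−2.05, SE 0.81, adjusted p = 0.123), although its NOR values, 14.4 to 33.1 CPM, lay above all 4 nonprogressor values. When the counts of all Ear and Rnase2 genes were summed before the fit, the summed difference at 22 weeks was −1.999 (adjusted p = 0.0311). Ear6 was 0.65 (SE 0.70, adjusted p = 0.645), and Prg2 and Epx had too few counts for this test. At 14 weeks, where 2.07% of all genes passed, the Rnase2a difference had the other sign, at 2.80 (SE 0.79, adjusted p = 0.0513), and 0 of the 6 genes passed with edgeR or with DESeq2, with 1 of 6 at an unadjusted p under 0.05. Rnase2a at 14 weeks passed without the 2 shallow libraries (2.80, adjusted p = 0.0430), without NOR mouse 2 (4.12, 0.00454), without nonprogressor mouse 1 (3.07, 0.0485) and with the family summed (2.46, 0.00997). At 6, 10 and 18 weeks 1.5%, 1.87% and 2.6% of all genes passed and 0 of the 6 genes did with either tool, with 1, 0 and 1 of 6 at an unadjusted p under 0.05. These comparisons share their NOR and nonprogressor libraries with the tests over age, and are not further evidence of them.

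Markers of mast cells moved in the same direction at 22 weeks. Of the 8 mast cell markers, 7 were lower in nonprogressors, where 7.19% of all genes passed in either direction, among them Cma1 (−4.89, adjusted p = 0.00075) and Cpa3 (−4.41, 0.00282), and their summed level was 8.78 to 22.8 CPM in nonprogressors and 45.5 to 164 CPM in NOR mice. Of the 10 macrophage markers, 3 were lower, and their sums overlapped (NOR 5347 to 7956 CPM, nonprogressors 4826 to 6198 CPM). Basophil marker sums did not overlap, lying from 0.364 to 0.684 CPM for NOR and from 0.0738 to 0.327 CPM for nonprogressor libraries, and neutrophil marker sums did. None of the mast cell or macrophage sums was at 0. The part of these cells in the result was not tested.

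**Figure D3:**
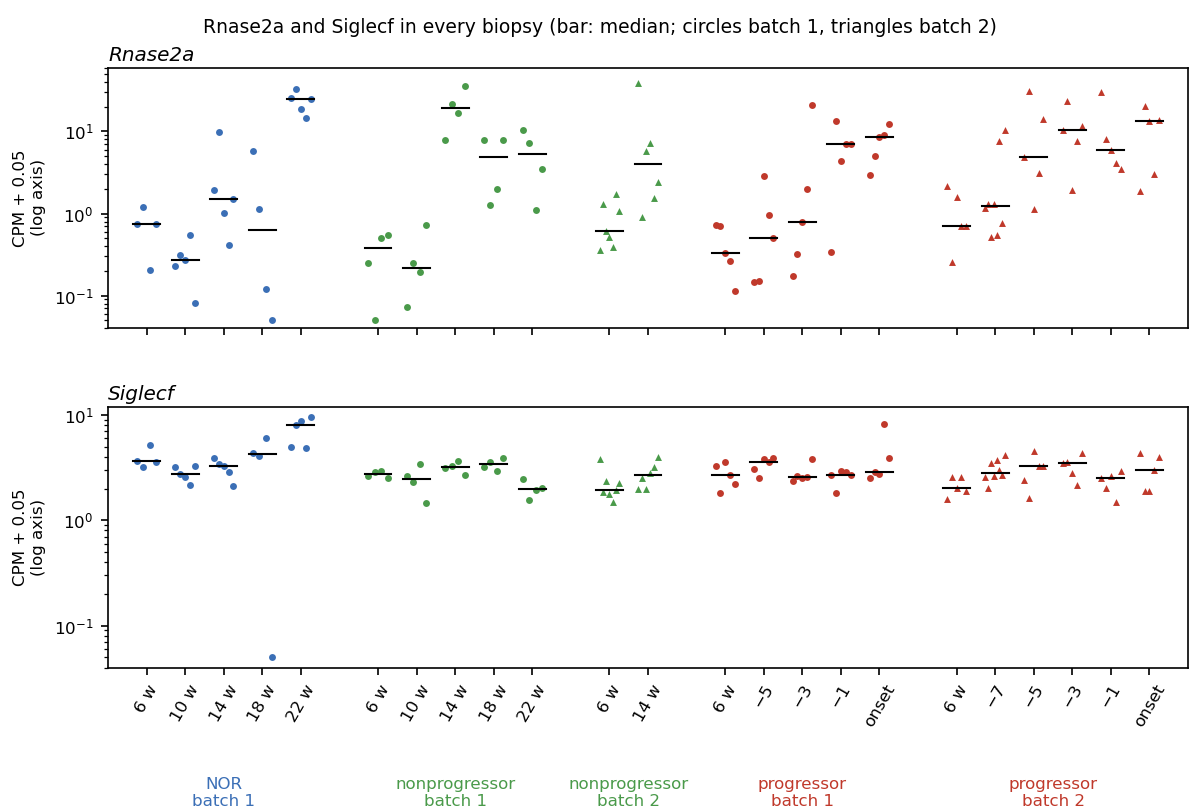
Rnase2a and Siglecf (CPM, log axis) in each library by group and time (weeks of age, weeks before onset or onset), with circles for batch 1, triangles for batch 2, bars for medians and 0.05 added for the axis. Rnase2a spans from under 0.1 to 38.5 CPM, whereas all but 1 Siglecf value lie between 1.40 and 9.61 CPM.

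Over all ages together the strains differed in Siglecf, a difference that was not called without the 22-week libraries. With the batch 1 biopsies of each mouse summed, NOD mice (5 progressors and 4 nonprogressors) were lower than the 5 NOR mice by a log2 difference of −0.50 (SE 0.11, adjusted p = 0.0107). This was the only 1 of 7 genes tested to pass, where 8.98% of all genes did. By library, the Siglecf median was 3.55 CPM for NOR, 2.74 CPM for nonprogressor and 2.72 CPM for progressor biopsies. Single biopsies of the strains overlapped, with ranges of 0 to 9.61, 1.40 to 3.89 and 1.77 to 8.09 CPM. Ear1 was −0.66 (SE 0.23, adjusted p = 0.0859), Il5ra −1.14 (SE 0.40, 0.0922), Ear2 −0.37 (SE 0.14, 0.123) and Rnase2a −0.42 (SE 0.41, 0.595). Prg2 was 0.31 (SE 0.37) and Ear6 0.47 (SE 0.33), with adjusted p of 0.684 and 0.444. Without the 22-week libraries, which are of NOR mice and nonprogressors only, Siglecf was −0.12 (SE 0.12, adjusted p = 0.571), 0 of 7 genes passed, and Rnase2a (1.65, adjusted p = 0.0784), Ear1 (0.35), Ear2 (0.35) and Il5ra (0.52) had the other sign. In nonprogressors minus NOR mice, Siglecf was −0.53 (SE 0.28, adjusted p = 0.578) at 6 weeks, −0.19 (SE 0.27, 0.891) at 10 weeks, 0.04 (SE 0.27, 0.997) at 14 weeks and −0.31 (SE 0.29, 0.709) at 18 weeks. With 6-week samples only, Siglecf was −0.54 (adjusted p = 0.179) in NOD minus NOR. Without NOR mouse 4, both Il5ra (0.0440) and Ear1 (0.0358) passed as well, as did Il5ra without progressor mouse 4 (0.0292) and Ear1 without progressor mouse 3 (0.0442). Of the mast cell markers, 5 of 8 were lower in NOD mice in the same comparison, and of the macrophage markers 3 of 10.

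In progressors the mean Rnase2a level after 6 weeks of age was above the 6-week value in 10 of 10 mice. In batch 2 these means took in 7 weeks before onset where it was sampled. In batch 1 Rnase2a was 0.679, 0.657, 0.279, 0.213 and 0.0634 CPM at 6 weeks in progressor mice 1 to 5. At onset these mice were at 2.87, 4.97, 8.45, 8.90 and 12.3 CPM, and the later mean of mouse 1 was 0.846 CPM. In batch 2 progressor mice 6 to 10 were at 2.10, 0.204, 1.53, 0.654 and 0.654 CPM at 6 weeks and at 1.81, 20.5, 13.4, 2.95 and 13.6 CPM at onset. The 6-week and onset values were apart in batch 1 and overlapped in batch 2 through mouse 6. In between, the batch 1 medians were 0.451 CPM at 5 weeks, 0.741 at 3 weeks and 7.02 at 1 week before onset, and the batch 2 medians of mice 6 to 10 were 4.85 at 5 weeks, 10.3 at 3 weeks and 5.92 at 1 week before onset. The 8 libraries of 7 weeks before onset, all in batch 2, came from mice 1, 2, 3, 4, 6, 7, 9 and 10, of which mice 1 to 4 have their other biopsies in batch 1, and had a median of 1.18 CPM (0.462 to 10.5). All neighbouring times in the order of medians overlapped in both batches. The highest biopsy was at onset in 3 of 5 mice of batch 1 and in 1 of 5 of batch 2.

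Later minus 6 weeks was 3.41 (SE 0.73, adjusted p = 0.000168) for Rnase2a in progressors, on the log2 scale. In this test later meant 5, 3 and 1 weeks before onset and onset, without 7 weeks before onset. The Rnase2a difference passed within batch 1 (3.24, adjusted p = 0.0281) and within batch 2 (3.35, 0.00594). Il5ra had no count in any of the 5 batch 1 libraries at 6 weeks, and 0, 0, 0.199, 0.0234 and 0.101 CPM in progressor mice 6 to 10. At 1 week before onset it was 0, 0.272, 0.353, 0.0860 and 0.324 CPM in mice 1 to 5 and between 0.195 and 0.392 CPM in mice 6 to 10. That time had the highest Il5ra median in both batches. At onset the median was 0.160 CPM in batch 1 and 0.0737 CPM in batch 2. The highest Il5ra biopsy of batch 2 was at 7 weeks before onset in 3 of 5 mice. The mean Il5ra level of a mouse's later biopsies, which in batch 2 took in 7 weeks before onset, was above its 6-week value in 9 of 10 mice. The Il5ra difference was 2.18 (SE 0.69, adjusted p = 0.00965), but within batch 2 it was 1.53 (adjusted p = 0.112). These were 2 of 6 genes tested, where 39.5% of all genes passed. Siglecf was 0.33 (SE 0.16, adjusted p = 0.0851), Ear1 0.68 (SE 0.43, 0.208), Prg2 0.64 (SE 0.48, 0.295) and Ear2 0.28 (SE 0.36, 0.566).

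Siglecf kept medians between 2.51 and 3.56 CPM at every time of the progressors in batch 1, and between 1.97 and 3.46 CPM in batch 2, and all neighbouring times overlapped. The F test over the 6 times called 35.6% of all genes and 2 of 6 here, Rnase2a (adjusted p = 0.00142) and Il5ra (0.0483). The Il5ra call was lost with the mouse as a block (0.0547) and without progressor mouse 1, 2, 3, 4, 5, 6, 9 or 10 (highest 0.138). Of the B cell markers 3 of 4 were higher in the later biopsies of progressors, with sums of 0.468 to 11.8 CPM in batch 1 against 0.492 to 2.04 CPM at 6 weeks, and their part in the Il5ra values was not tested.

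No test of progressors against nonprogressors passed for any of the 8 genes. At 6 weeks of age 0 of 3 genes tested passed, where 0% of all genes did, and 0 had an unadjusted p under 0.05, with 0 of 3 by DESeq2. Rnase2a was 0.39 (SE 0.45, adjusted p = 0.946), Ear2 0.47 (SE 0.30, 0.909) and Siglecf −0.04 (SE 0.15, 0.986) in progressors minus nonprogressors. In the later biopsies, summed by mouse and batch, 0 of 7 passed with edgeR and with DESeq2, where again 0% of all genes did with edgeR (146 genes with DESeq2, and 2238 at an unadjusted p under 0.05), and the lowest unadjusted p was 0.0552. The differences were 0.94 (SE 0.47, adjusted p = 0.537) for Il5ra, 0.69 (SE 0.34, 0.535) for Prg2, 0.72 (SE 0.39, 0.564) for Ear6, −0.22 (SE 0.55, 0.918) for Rnase2a and 0.14 (SE 0.14, 0.750) for Siglecf. The later biopsies of the classes were not matched for age. Those of progressors left out 7 weeks before onset, here and in the changes from 6 weeks. Those of nonprogressors were at 14 weeks only in batch 2, and in batch 1 they included the 22-week libraries that stood apart in 7SL share. The change from 6 weeks did not pass between nonprogressors and NOR mice in any of the 7 genes tested (0.00877% of all genes), nor between progressors and nonprogressors (0%), with none at an unadjusted p under 0.05 and 0 of 7 by DESeq2 in each. For Rnase2a these differences of changes were 1.14 (SE 1.16, adjusted p = 0.831) and 0.41 (SE 0.89, 1).

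**Figure D4:**
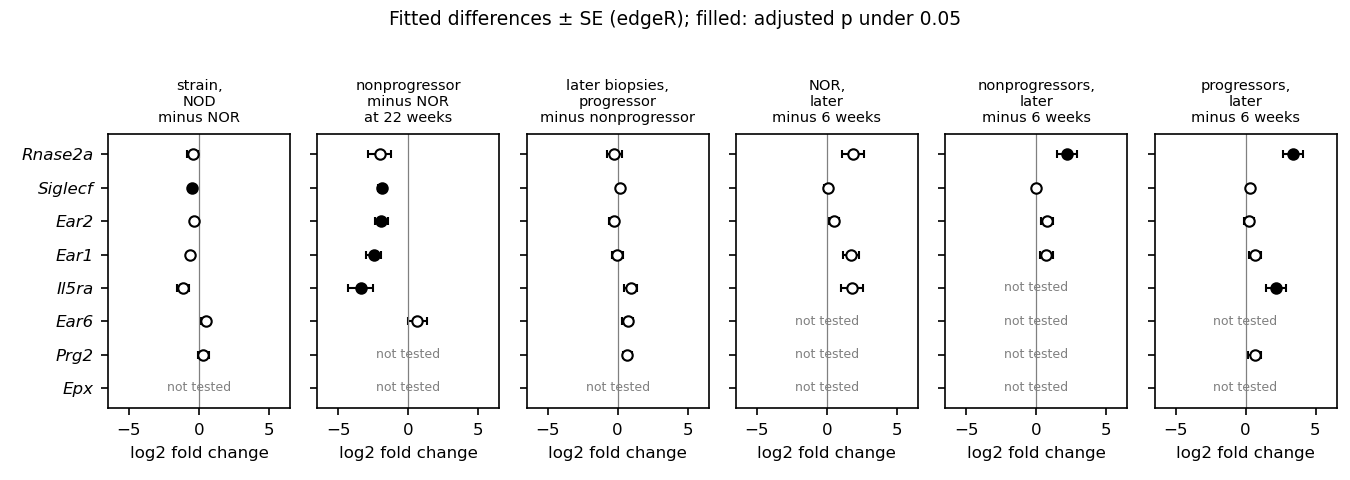
Log2 differences with their standard errors for each gene tested in 6 comparisons of strain, class and time, with filled points for an adjusted p under 0.05. Rnase2a stands at 3.41 in progressors and 2.20 in nonprogressors for later minus 6 weeks, and Siglecf at −0.50 for NOD minus NOR.

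Prg2 and Ear6 were present at a few counts and Epx at almost none in the 114 libraries with an age or onset label. Prg2 had a median of 0.0946 CPM and a highest value of 0.560, and passed no test in which it entered. In the 19 later NOR libraries it was at 0 to 0.413 CPM and in the 4 NOR libraries of 6 weeks at 0 to 0.327. Ear6 had a median of 0.0557 CPM and reached 0.761 CPM in progressor mouse 3 at onset. Its medians were 0.100 CPM over batch 1 and 0.0261 CPM over batch 2. Epx reached 5 counts (0.205 CPM) in NOR mouse 3 at 22 weeks, and its medians were 0 in each class and batch.

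**Figure D5:**
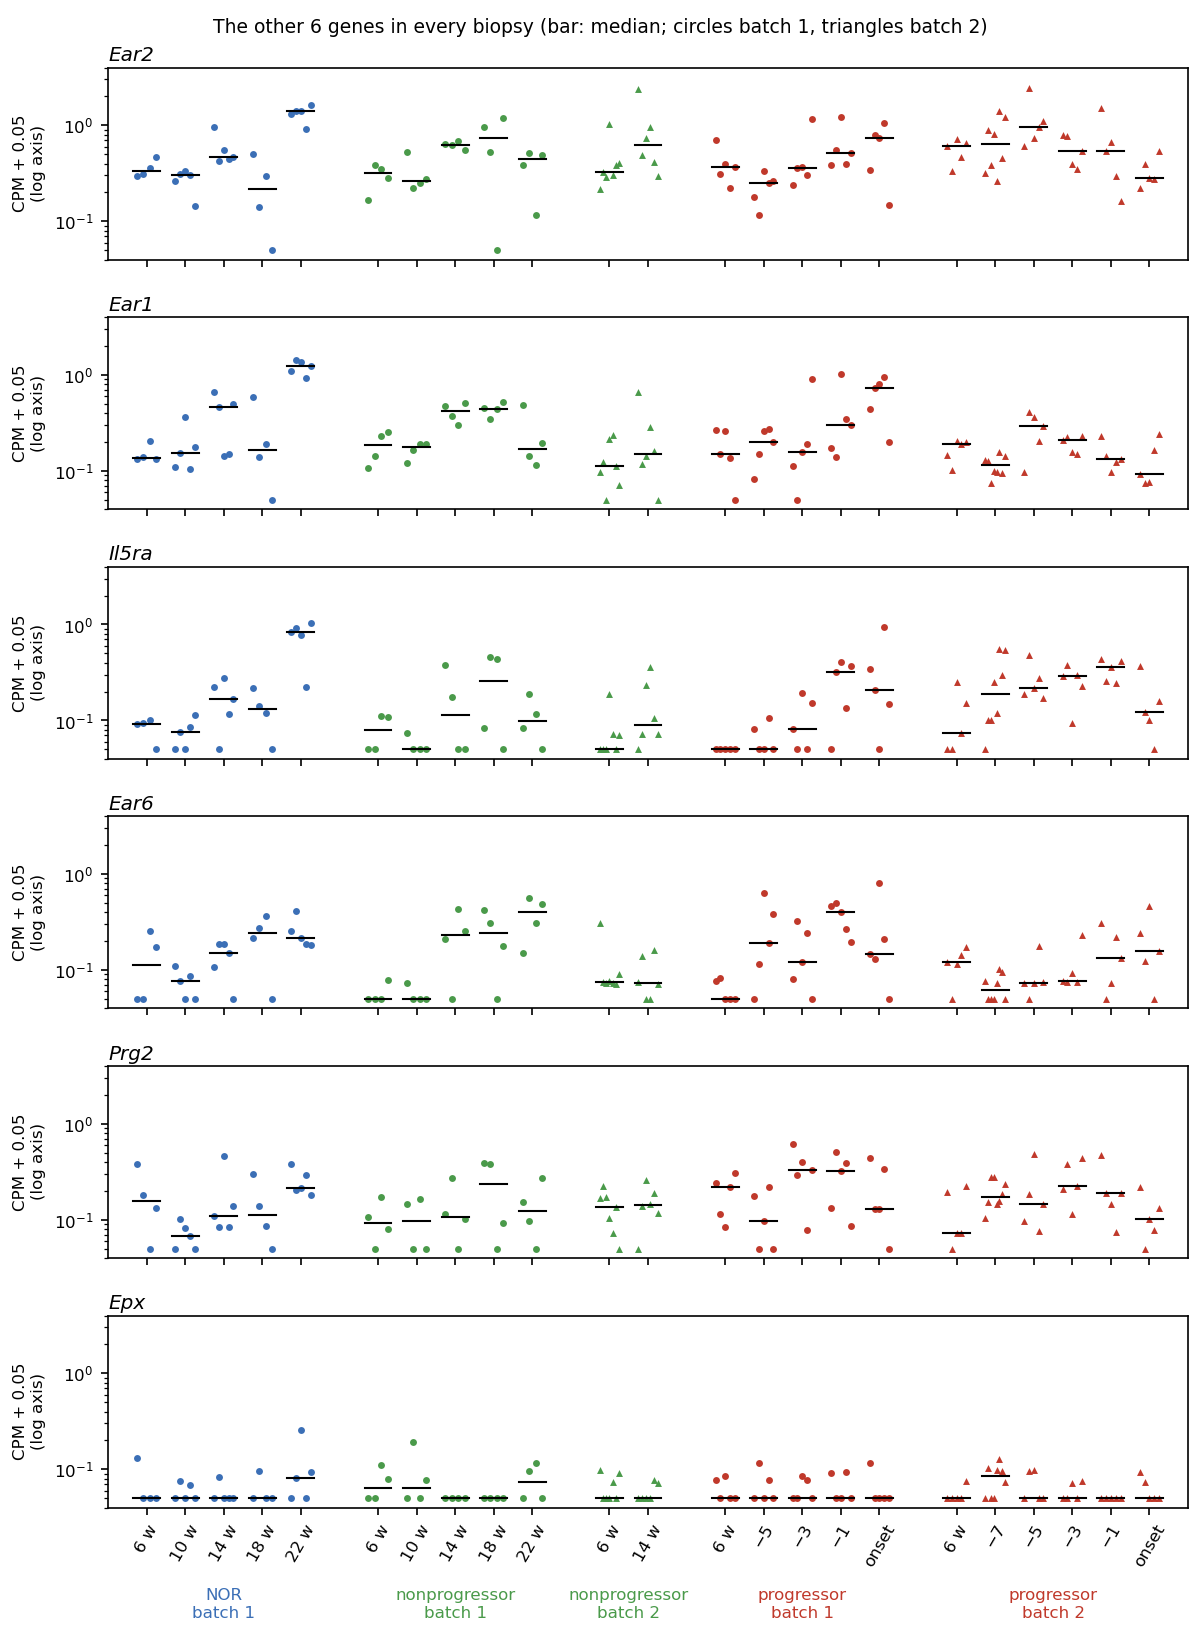
Levels (CPM, log axis, 0.05 added) of Ear2, Ear1, Il5ra, Ear6, Prg2 and Epx in each library by group and time, with circles for batch 1, triangles for batch 2 and bars for medians. The medians of Ear1, Ear2 and Il5ra in NOR mice are highest at 22 weeks, and Epx stays at or near 0 throughout.

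The genes around eosinophil supply were read from a list of 31 genes that held ligands, receptors, regulators and other granule or enzyme genes. For NOR ages 8 of 21 tested differed by the F test (8.24% of all genes), led by Alox15, which encodes a lipoxygenase of eosinophils and alternatively activated macrophages (adjusted p = 1.95e-05), Il1rl1, the interleukin-33 receptor (0.000187), Cebpe, a granulocyte transcription factor (0.000269), Il5 (0.00501) and the eotaxin gene Ccl11 (0.00528). Between the strains at 22 weeks 5 of 22 passed (7.19% of all genes) and all were lower in nonprogressors, whose libraries stood apart in 7SL share. They were Alox15 (−3.61, SE 0.63, adjusted p = 0.000185), Ccl11 (−2.62, SE 0.56, 0.00245), Gata1, a transcription factor required for eosinophils (−4.15, SE 1.15, 0.0203), Ccr3 (−2.50, SE 0.70, 0.0218) and Cebpe (−1.56, SE 0.48, 0.0364). With the ages together 3 of 23 passed (8.98% of all genes), Alox15 (−2.27, adjusted p = 0.00858) and Gata1 (−1.61, 0.0295) lower and the eotaxin gene Ccl24 higher (0.74, 0.0210) in NOD mice. The list's median log2 difference was −0.87 at 22 weeks and −0.12 over all ages, where that of all genes was 0.01 and −0.00. Gata1, Alox15 and Cebpe are also expressed by cells other than eosinophils, mast cells and erythroid cells among them for Gata1.

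In nonprogressors 7 of 20 genes of the list changed after 6 weeks, 6 of them upward, where 24.1% of all genes did, and in progressors 7 of 19 did, 5 upward, where 39.5% of all genes did. Csf2rb, the beta chain shared by the receptors of interleukin-5, interleukin-3 and GM-CSF, rose by 0.61 and 0.63 in nonprogressors and progressors respectively. Csf2rb2, an interleukin-3 receptor beta chain of the mouse, rose by 0.71 and 0.71, and Csf2ra, the GM-CSF receptor alpha chain, by 0.64 and 0.58. These receptors are also carried by macrophages. In nonprogressors Alox15 rose by 2.51 and Il3ra, the interleukin-3 receptor alpha chain, by 0.27. In progressors Il33 fell by 0.80 and Zfpm1, a GATA cofactor, by 0.43 on the log2 scale. None of the list passed in NOR mice for later minus 6 weeks, in progressors against nonprogressors at 6 weeks or later, in the differences of changes, or between the strains at 6, 14 or 18 weeks with edgeR, where between 1 and 8 of the genes had an unadjusted p under 0.05. Ccl24 was higher in nonprogressors at 10 weeks (2.76, SE 0.53, adjusted p = 0.000974).

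The genes most like each of the 4 genes that passed the filter on low counts in both batches were named by the mean of the Spearman correlations within batch 1 (74 libraries) and batch 2 (46 libraries). For Rnase2a these were Car4, a carbonic anhydrase gene (0.878), the homeobox gene Msx3 (0.833) and Il13ra2, the interleukin-13 decoy receptor (0.808). Ranks 4 to 10 were Mgl2 (0.802), Hfe (0.787), Il13 (0.769), Chil3 (0.755), Aif1l (0.750), Aqp9 (0.743) and Arg1 (0.743). Il13, from the supply list, had correlations of 0.720 in batch 1 and 0.818 in batch 2. For Ear2 they were Col6a5 (0.648), Retnla (0.621) and Ccl11 (0.600), for Siglecf Cd22 (0.618), Gm43999 (0.534) and Ppfibp2 (0.533), and for Il5ra Jchain (0.714), Mrgprg (0.700) and Igkc (0.693), where Jchain and Igkc are genes of antibody-secreting cells. Among the 8 genes, Rnase2a correlated with Ear1 at 0.723 in batch 1 and 0.371 in batch 2, with Ear2 at 0.668 and 0.448 and with Il5ra at 0.533 and 0.5. In the same order of batches it correlated with Siglecf at 0.340 and 0.0352 and with Epx at 0.0483 and −0.187. Over libraries with an age or onset label, Il5ra correlated with the summed mast cell markers at 0.666 in batch 1 and 0.511 in batch 2. With the summed B cell markers it correlated at 0.392 and 0.496. The libraries behind these values share mice, times and depth, and the correlations are given as descriptions.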

How the data were processed

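Total RNA of IN biopsies was depleted of ribosomal RNA and sequenced on NovaSeq instruments, of different models in batch 1 and batch 2. The authors deposited estimated counts per gene from RSEM as whole numbers, in a table for each batch, with no normalization. The submitters' processing notes name cutadapt, FastQC, MultiQC, STAR, RSEM and GRCm38, and tool versions are not given in the sources used here. Estimated counts divide reads that fit several genes, which bears on Ear1 and Ear2.

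Counts were fitted with the edgeR 4.0.16 quasi-likelihood test in R 4.3.3, after TMM scaling and filterByExpr (minimum count 10, minimum total 15), with Benjamini-Hochberg adjustment over all genes tested and a threshold of 0.05. NOD minus NOR was fitted on batch 1 biopsies summed by mouse. Later biopsies of progressors and nonprogressors were summed by mouse and batch. In every contrast of later progressor biopsies 7 weeks before onset was left out, and it entered the F test over times. NOD fits over both batches had a batch term. Levels are TMM-scaled CPM. Alternatives were DESeq2 1.42.0, its size factors, no filter, no batch term, single batches, the mouse as a block, leaving out each mouse and, added after seeing the data, the strains by age, without 22-week libraries, without 7SL and ribosomal RNA genes and with the 7SL share as a covariate. The test was checked on simulated counts of independent libraries with the same dispersion for all genes. That check does not cover changes in genes of few counts or biopsies that share a mouse.

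The 8 genes and all gene lists were chosen with earlier results of these data known. Named genes were the 8 genes, up to 5 genes of the supply list past the threshold in a comparison by smallest p, and the 3 most correlated genes for each of the 8 genes that passed the filter in both batches. Ranks 4 to 10 were named in addition for Rnase2a only. Mouse numbers in the labels mark the same animal, so biopsies are paired by mouse. The main fits over age or time, and of the strains by age, entered each biopsy as a separate library. The mouse was a block only in alternative fits, so the main adjusted p-values over age or time are not paired. Over 2000 genes, the mean correlation of same-mouse deviations was -0.0217 in NOR mice, 0.00339 in nonprogressors and -0.0174 in progressors. The 6 libraries labelled by days after implantation entered no comparison.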

Additional observations from a re-analysis of the deposited data

Results flagged for a closer look

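Of 180 sets of 4 to 10 libraries, a set being 1 of the 8 genes in 1 group and batch, 25 held a library far from the others by Dixon's test. Its limit is made for about 1 of 20 sets of normally distributed values, and it was applied here to CPM, often of few counts. The sets of different genes also share libraries, so these rates cannot be compared. The cause was not tested. For Rnase2a these were NOR mouse 2 at 14 weeks (9.85 CPM), nonprogressor mouse 5 of batch 2 at 14 weeks (38.49 CPM), progressor mouse 6 of batch 2 at 1 week before onset (29.81 CPM) and progressor mouse 5 of batch 1 at 3 weeks before onset (20.81 CPM). The last library was also highest in Ear1 (0.8642 CPM), Ear2 (1.106 CPM) and Siglecf (3.802 CPM).

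For Siglecf, progressor mouse 4 of batch 1 at onset was at 8.094 CPM, nonprogressor mouse 5 of batch 2 at 6 weeks at 3.756 CPM, and progressor mouse 2 of batch 1 at 1 week before onset was the lowest of its group at 1.767 CPM. Ear1 stood apart in NOR mouse 3 at 10 weeks (0.315 CPM) and in progressor mouse 3 of batch 1 at 1 week before onset (0.9799 CPM), where Ear2 was at 1.176 CPM. Ear2 was also apart in NOR mouse 1 at 14 weeks (0.9062 CPM), in nonprogressor mouse 5 of batch 2 at 14 weeks (2.333 CPM), in nonprogressor mouse 8 of batch 2 at 6 weeks (0.9833 CPM) and in progressor mouse 7 of batch 2 at 5 weeks before onset (2.38 CPM).

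Ear6 stood apart in nonprogressor mouse 5 at 6 weeks (0.2615 CPM), progressor mouse 10 at 3 weeks before onset (0.1808 CPM) and progressor mouse 9 at 5 weeks before onset (0.1273 CPM), all of batch 2, and in progressor mouse 3 of batch 1 at onset (0.7612 CPM). Prg2 did so in NOR mouse 3 at 14 weeks (0.4127 CPM) and in progressor mouse 8 of batch 2 at 5 weeks before onset (0.4305 CPM), Epx in NOR mouse 3 at 22 weeks (0.2046 CPM) and Il5ra in nonprogressor mouse 8 of batch 2 at 6 weeks (0.1366 CPM).

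Prg2 was also measured in the libraries labelled by days after implantation, which enter no comparison. It was 10.68 and 8.899 CPM at 108 days and 1.848 and 0.5501 CPM at 38 days, where the highest of the 114 other libraries was 0.5602 CPM.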

How the results depend on the processing

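Of 1031 alternative values, 926 kept their direction and side of the threshold, 49 lost a call, 16 gained 1 and 40 changed sign. The causes were not tested. Counts refer to the 8 genes. For NOD minus NOR the count was 0 with 6-week samples only, 0 without the 22-week libraries, an alternative added after seeing the data, and 1 to 3 with single mice left out. For later minus 6 weeks in nonprogressors it was 0 with the mouse as a replicate block, 2 with no batch term (Ear1 1.12, adjusted p = 0.045), and 0 to 1 with single mice left out. In progressors it was 1 within batch 2. The F test over progressor times gave 1 with the replicate block, with no batch term, with no filter, within batch 1 and within batch 2, and 1 to 4 with single mice left out. That of nonprogressors gave 1 to 3 with single mice left out, and 2 of 7 tested with the replicate block, Rnase2a and a gene too low for the fit without it. The batch comparison gave 2 with DESeq2 and 2 with no filter. At 14 weeks the strains gave 1 without the 2 shallow libraries and 0 to 1 with single mice left out. Pairing by mouse changed no other call.

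These uncalled values changed sign: Prg2 in the strains with nonprogressors only (-0.26) and, without the 22-week libraries, Il5ra (0.52), Rnase2a (1.65), Ear2 (0.35) and Ear1 (0.35), Siglecf at 6 weeks with no batch term (0.00341), Rnase2a in later biopsies within batch 2 (0.16) and Ear1 there with no batch term (0.12) and within batch 1 (0.42). For Siglecf in nonprogressors, later minus 6 weeks was 0.031 with DESeq2, 0.027 with its size factors, 0.00537 with the replicate block, 0.13 with no batch term, 0.00739 with no filter and 0.00963 without the 2 shallow libraries. Siglecf in the change of nonprogressors minus NOR was -0.017 with the block, -0.058 without the 18-week library of NOR mouse 5 and -0.045 without both shallow libraries, and Rnase2a -0.12 with the block. Ear1 in the change of progressors minus nonprogressors was 0.00548 with DESeq2, 0.070 with the block, 0.00227 without that NOR library and 0.00271 without both. With single mice left out, later progressors minus nonprogressors ran from -0.45 to 0.47 for Rnase2a, -0.36 to 0.077 for Ear2 and -0.12 to 0.41 for Ear1, and Siglecf from -0.093 to 0.057 at 6 weeks, -0.057 to 0.20 in NOR mice and -0.062 to 0.089 in nonprogressors. 

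Over all genes, 2101 calls between strains became 403 with 6-week samples, 5094 in nonprogressors became 9173 with no batch term, 8403 in progressors became 5317 within batch 1, 1617 over NOR ages became 3509 with DESeq2 and 481 without NOR mouse 1, 7334 over nonprogressor ages became 2672 and 7574 over progressor times 3675 within batch 1, and 7 for later NOR biopsies became 47 with DESeq2 and 2 with the block. DESeq2 called 146 where edgeR called 0 in later progressors minus nonprogressors, 21 against 2 and 27 against 0 in the changes of nonprogressors and progressors, and at 10, 14 and 18 weeks 629 against 386, 671 against 427 and 829 against 537. At 6 weeks 310 became 499 and at 22 weeks 1485 became 2278 without the shallow libraries and 849 without NOR mouse 1. Il5ra, Ear1 and Ear2 rest on few counts, and supply-list genes were not recomputed under the alternatives.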

Other observations

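The 6 nonprogressor libraries labelled by days after implantation gave these levels. Rnase2a was 8.39 and 4.38 CPM at 31 days, 1.496 and 0.381 CPM at 38 days and 4.66 and 9.50 CPM at 108 days. Siglecf was 5.14 and 5.43 CPM at 31 days, 3.70 and 5.25 at 38 days and 3.25 and 3.38 at 108 days. Il5ra was 0.813 and 0.464 CPM at 108 days, where the sum of the B cell markers was 31.9 to 33.7 CPM, and at most 0.271 CPM at 31 and 38 days. Epx was at most 0.0774 CPM in these libraries, also where Prg2 was at 10.7 CPM.

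Reads of the ribonuclease family also fell on the pseudogenes Ear-ps2, with 485 counts over the 120 libraries, and Ear-ps9, with 345. Ear-ps9 was 98.5% identical to the Ear1 transcript, and Ear-ps2 97% identical to Ear2.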
